A study of Mus musculus with 9 samples.

Results

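The genes described here are 9 genes of MHC class II antigen presentation and of the cells that carry it out: H2-Aa, H2-Ab1, H2-Eb1, H2-DMa, H2-DMb1, Cd74, Ciita, Flt3 and Itgax. They were chosen by name, with earlier results of these data known, and each was found once among the 22054 genes measured. RNA came from the callus of a femoral fracture on day 7, from male mice that the labels give as 7 weeks old and the study as C57BL/6J. All mice in the 3 groups had the fracture, and from the day after surgery each received 200 μl by intraperitoneal injection daily for a week. The PBS group received PBS buffer as a control, and the H-151 group received 750 nmol of H-151, a small molecule that blocks STING. The SR-717 group received 30 mg/kg of SR-717, a small molecule that activates STING. What the drugs were dissolved in is not stated, so whether PBS matched their solvent is unknown. Each group held 3 libraries, numbered 1 to 3. The drugs reached the whole animal, and the callus was sequenced as a mixture of cells. For this reason fewer cells of a type and less RNA per cell cannot be told apart in any value given here.

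MHC class II molecules display peptides from engulfed or internalised proteins to CD4+ T cells. An α and a β chain pair in the endoplasmic reticulum with the invariant chain, which Cd74 encodes, and travel to endosomes, where proteases remove most of the invariant chain and H2-DM exchanges its last fragment, CLIP, for a peptide. The master regulator CIITA, which interferon-γ induces in many cell types, does not bind DNA itself and acts through the factors RFX, CREB and NF-Y on a promoter module of X and Y boxes. Dendritic cells, macrophages and B cells are the main class II-positive cells of bone and marrow. FLT3 is the receptor through which the growth factor FLT3L drives dendritic cell development. Itgax encodes CD11c, an integrin subunit used as a dendritic cell marker that some macrophages and NK cells carry too.

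Of the 9 genes, 5 lay on chromosome 17 within 197 kb of the MHC class II region (GRCm38, GENCODE annotation). H2-DMa started that stretch at 34119541 and H2-Eb1 closed it at 34316674. H2-Ab1 (34257689 to 34269419, forward strand) and H2-Aa (34282744 to 34287823, reverse strand) were separated by 13.3 kb and encode the β and α chain of the I-A molecule. Each of the other 4 genes lay on a chromosome of its own. In C57BL/6 mice the I-E molecule is not displayed because the partner gene of H2-Eb1, H2-Ea, is defective. H2-Ea was looked for by symbol and was not found among the genes used here. H2-Eb1 transcripts were still abundant, as its levels show.

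The promoter stretches printed here show letters of the box through which NF-Y acts, in H2-Aa and H2-Eb1, and of the box bound by RFX, in H2-Eb1 and H2-DMb1. The capitals GATTGG mark the core of the Y box, and the capitals beginning AAC mark a match to the X1 box core AACNGATG. The stretches of H2-Aa and H2-Eb1 run from 130 to 31 bases before the RefSeq gene start (RefSeq, GRCm38.p6), which in both genes is the GENCODE start too. They lie at chr17:34287854-34287953 on the reverse strand and chr17:34305737-34305836 on the forward strand. For H2-DMb1, 30 bases around its X1 match are shown, at chr17:34153087-34153116 on the forward strand, because the GENCODE annotation starts that gene at 34153072, upstream of the RefSeq start.
H2-Aa: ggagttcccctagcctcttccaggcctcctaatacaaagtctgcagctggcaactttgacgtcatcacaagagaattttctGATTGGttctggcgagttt
H2-Eb1: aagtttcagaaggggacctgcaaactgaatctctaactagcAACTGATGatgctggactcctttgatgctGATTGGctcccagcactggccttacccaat
H2-DMb1: ggtttacctagtAACTGATGatgctaggct

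Windows of 250 bases before to 50 after the RefSeq start were at hand for 6 of the 9 genes (7 windows, since H2-DMa had 2), and H2-Ab1, Cd74 and Ciita had none. A Y box core on the gene's strand began 49 bases before the start of H2-Aa, 60 before that of H2-Eb1 and 62 before that of H2-DMb1, while the match in one H2-DMa window lay further out, 199 bases before the start. The X1 core was found in H2-Eb1 and H2-DMb1, and it began 29 and 30 bases before their Y boxes. H2-DMb2, the near-identical neighbour of H2-DMb1, had the same pair at the same spacing of 30 bases. On the gene's strand, the pair occurred together in 24 of 32851 windows in the genome (0.0731%). Counted on both strands, the Y core occurred in 16.1% of windows, the X1 core in 2.32%, the X2 core TGNGTCA in 15.4% and the interferon-stimulated motif GAAANNGAA in 8.56%. No match of one motif in these genes overlapped a match of another. The X2 letters were found in the windows of Flt3, Itgax and one of H2-DMa, and the interferon-stimulated letters in none of the 7 windows. The printed stretch of H2-Aa holds tgacgtca, letters that the X2 pattern cannot match, so a window without a match may still hold a variant of a box. A match of letters is a description and does not show that a factor bound there.

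The libraries held between 16987398 and 23272480 expected counts over all genes, an expected count being an estimate of reads per gene that need not be whole. SR-717 replicate 1 stood apart from all others on the first principal component, which held 46.6% of the variance (101 against 38.8 in PBS replicate 1 and -28.8 to -4.03 in the rest). Col1a1, the main collagen of bone, the labelled tissue, had at least 21135 CPM (counts scaled to library size with TMM normalisation) in each library. SR-717 replicate 1 had the lowest level of all 5 skeletal marker genes, including 50.2 CPM of the cartilage collagen Col2a1 against 858 to 10567 in the other 8 libraries. How many of all genes were highest or lowest in that library was not counted. Fold changes of the 9 genes and medians of the pathway and regulator lists in the SR-717 comparisons are given with and without it. Medians of the immune cell marker lists are given in this way for SR-717 against PBS only. PBS and treated libraries of the same number had positively correlated deviations from their group means. Differences between libraries of the same number are given where all 3 pairs with PBS went one way. How many of all genes had 3 such pairs was not counted, so these differences are descriptions and not calls.

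Levels of different genes were compared in TPM, the authors' values per length and per library total. Cd74 was the most abundant of the 9 genes (mean of 9 libraries 425 TPM), followed by H2-Aa (269.9), H2-Ab1 (199) and H2-Eb1 (143), and this order held in 9 of 9 libraries. Next came H2-DMb1 (38.4) and H2-DMa (35.5), whose order held in only 7 of 9 libraries, so that these neighbours did not differ beyond their spread. Itgax (20.3) was below H2-DMa in 8 of 9 libraries. Ciita (2.09) and Flt3 (1.49) were the lowest, at a level far under that of Itgax in 9 of 9 libraries, and Ciita was above Flt3 in 7 of 9. The expected counts behind these levels went from 3375 to 14234 for Cd74 and from 20 to 98 for Flt3, so the values of Flt3 carry by far the larger counting error.

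**Figure D1:**
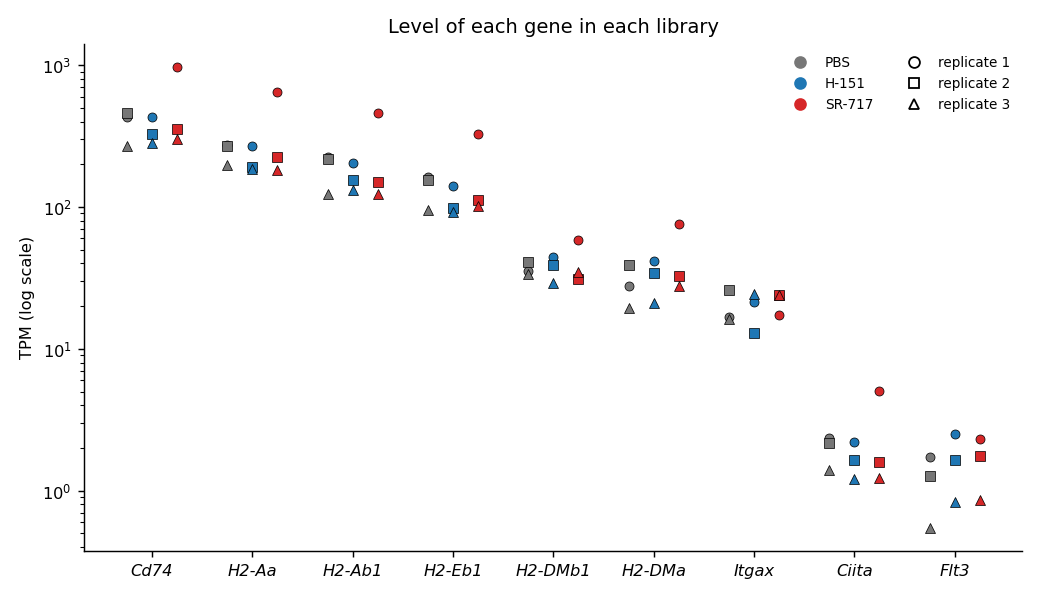
TPM on a log axis of the 9 genes, ordered by mean level, with 1 point per library, colour for the group and shape for the replicate number. SR-717 replicate 1 is the highest point for 7 of the 9 genes, but not for Flt3 or Itgax, and the other 8 libraries lie within a narrow band for the chains and Cd74.

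H2-Aa, the α chain of I-A, was at 160.4, 152 and 124 CPM in PBS libraries 1 to 3, at 147, 114 and 124 CPM in H-151 libraries, and at 437, 143 and 109 CPM in SR-717 libraries. Its partner chain H2-Ab1 was at 143, 132 and 84.3 CPM with PBS, at 120.4, 98.4 and 95.3 CPM with H-151, and at 335, 103 and 80.6 CPM with SR-717. H2-Eb1, the β chain of I-E, was at 112, 106 and 72.6 CPM, at 94.2, 72.5 and 77.7 CPM, and at 268, 88.4 and 71.0 CPM in the same order of groups and libraries. In each of these chains the first SR-717 library was the highest of all 9, the third SR-717 library was the lowest, and the 3 groups overlapped. The first SR-717 library exceeded the median of the other 8 libraries by 3.27-fold for H2-Aa, 3.33-fold for H2-Ab1 and 3.22-fold for H2-Eb1 in CPM, and by 3.08-fold, 3.03-fold and 3.06-fold in TPM.

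The invariant chain gene Cd74 followed the chains. It was at 287, 294 and 189.7 CPM with PBS, at 266, 217 and 217 CPM with H-151, and at 735, 253 and 205 CPM with SR-717. SR-717 replicate 1 was again the highest library, at 3.13-fold the median of the others, and the other SR-717 libraries were inside the PBS range. Per length, Cd74 reached between 0.643 and 0.745 of the summed TPM of the 3 chains in every library, although that sum went from 406 TPM in SR-717 replicate 3 to 1435 TPM in SR-717 replicate 1. The chains and Cd74 together took between 0.0683% and 0.110% of all TPM in 8 libraries and 0.240% in SR-717 replicate 1.

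H2-DMa and H2-DMb1 encode the peptide exchange factor DM. H2-DMa was at 16.5, 22.5 and 12.4 CPM with PBS, at 22.9, 20.7 and 14.6 CPM with H-151, and at 50.7, 20.8 and 16.9 CPM with SR-717. H2-DMb1 was at 26.0, 28.9 and 26.4 CPM with PBS, at 30.3, 29.0 and 24.7 CPM with H-151, and at 48.9, 24.7 and 26.0 CPM with SR-717. Both were highest in SR-717 replicate 1, by 2.70-fold and 1.86-fold over the median of the other libraries, and the groups overlapped. The expected counts of H2-DMb1 were not whole in 8 of 9 libraries, and those of H2-DMa were whole in all. As H2-DMb2 is nearly identical in sequence, how its reads and those of H2-DMb1 were divided is uncertain.

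The DM genes made up a varying share of the chains. Their summed TPM was 9.60%, 12.5% and 12.7% of the summed TPM of the chains in PBS libraries 1 to 3, and 14.0%, 16.5% and 12.4% in H-151 libraries. With SR-717 it was 9.32%, 13.1% and 15.4%. The groups overlapped, and the lowest shares were those of SR-717 replicate 1 and PBS replicate 1, the libraries with the most chain TPM.

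Ciita, the regulator of the chains, was at 6.22, 5.24 and 4.66 CPM with PBS, at 5.74, 4.73 and 3.89 CPM with H-151, and at 16.7, 4.74 and 3.39 CPM with SR-717. As for the chains, SR-717 replicate 1 was the highest library, at 3.52-fold the median of the others, and SR-717 replicate 3 was the lowest. The H-151 libraries were below the PBS libraries of the same number in 3 of 3 pairs, with differences (H-151 minus PBS) of -0.486, -0.509 and -0.774 CPM, though the groups overlapped. Each Ciita TPM went with between 269 and 335 TPM of the chains, a range that the library with the highest level did not leave (284).

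**Figure D2:**
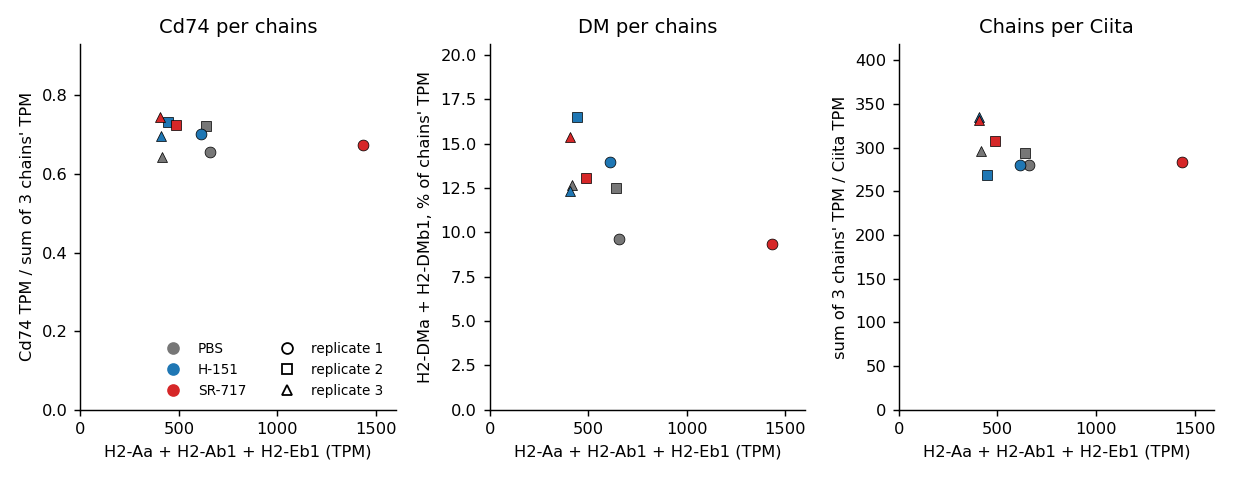
Ratios of the pathway's parts in each library against the summed TPM of H2-Aa, H2-Ab1 and H2-Eb1 (horizontal axes): Cd74 TPM over the sum (left), H2-DMa plus H2-DMb1 as % of the sum (middle) and the sum over Ciita TPM (right). All axes start at 0, and SR-717 replicate 1, at 1435 TPM, has ratios to Cd74 and Ciita within the range of the other libraries but the lowest DM share, 9.32%.

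Flt3, the growth factor receptor of dendritic cell precursors, was the scarcest gene. It was at 3.31, 2.33 and 1.12 CPM with PBS, at 4.46, 3.16 and 1.83 CPM with H-151, and at 5.06, 3.61 and 1.69 CPM with SR-717. The first library was the highest and the third the lowest in all 3 groups, and the spread within each group was wider than the differences between them. Within the pairs of the same number, SR-717 was above PBS by 1.75, 1.29 and 0.569 CPM and H-151 was above PBS by 1.15, 0.830 and 0.710 CPM, which makes 3 of 3 pairs in each case. Both differences were taken against the same PBS libraries.

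Itgax was the gene that did not follow the others. It was at 35.2, 52.5 and 36.5 CPM with PBS, at 41.7, 27.6 and 57.9 CPM with H-151, and at 42.1, 54.7 and 51.5 CPM with SR-717. SR-717 replicate 1, the library with the highest chains, was below the median of the others (0.903 of it), and the libraries with the highest and the lowest CPM both belonged to the H-151 group. Within the pairs of the same number, SR-717 was above PBS in 3 of 3 pairs, by 6.86, 2.22 and 15.0 CPM. Its expected counts were not whole in 7 of 9 libraries.

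**Figure D3:**
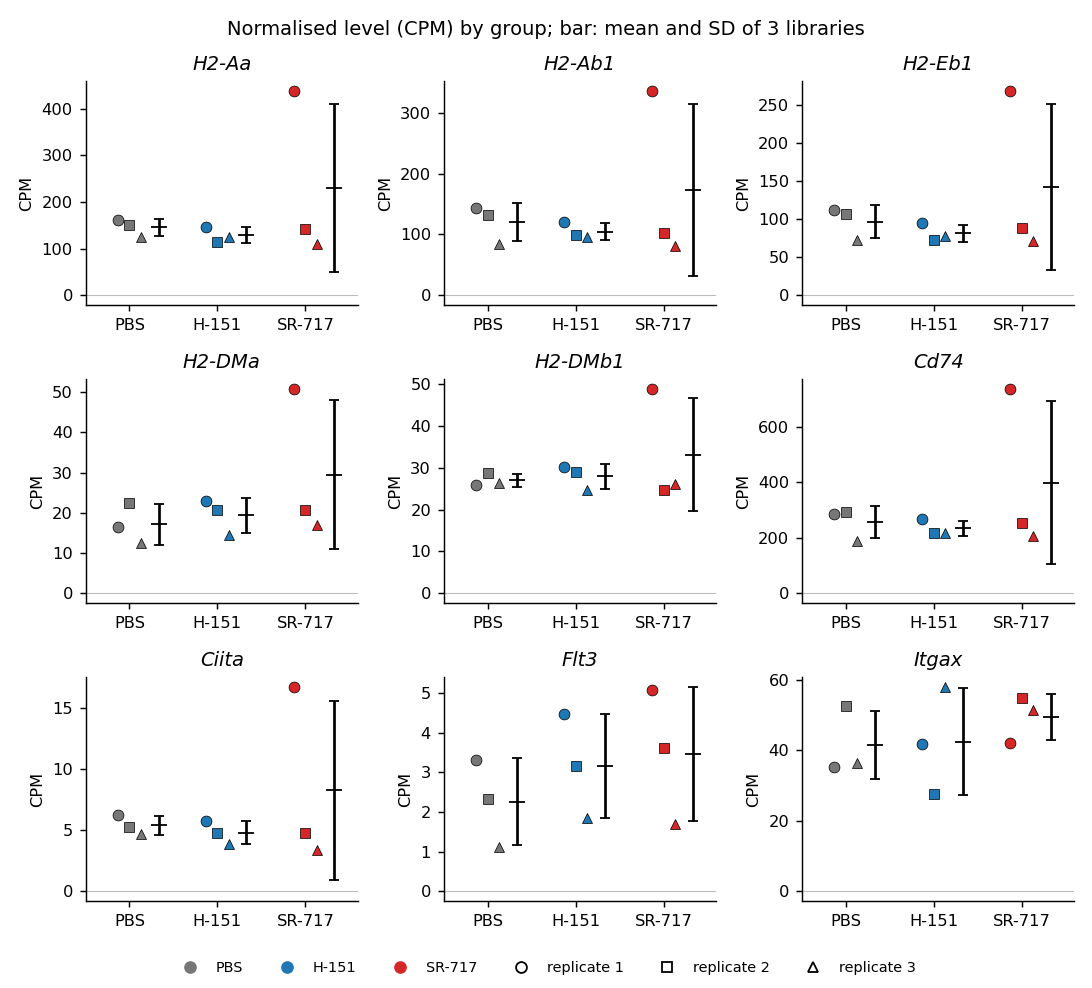
CPM of each of the 9 genes by group, with 1 point per library, a different shape for each replicate number, and the mean and SD of 3 libraries beside the points; all axes include 0. In 7 panels the SR-717 mean and its long SD bar are set by replicate 1, whereas Flt3 is highest in replicate 1 and lowest in replicate 3 of each group and Itgax scatters within groups.

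Across libraries, the chains and Cd74 varied together. Pearson's r of log2 CPM between any 2 of these 4 genes was 0.98 or more over 9 libraries and 0.89 or more over the 8 without SR-717 replicate 1. These are descriptions over libraries that share replicate numbers, and no p is given. Against the mean of the 4 genes (each scaled to its own mean and SD), Ciita had an r of 0.97, and 0.83 without that library. For H2-DMa r went from 0.89 to 0.51 without it, and for H2-DMb1 from 0.90 to 0.26. Flt3 stood at 0.66 and 0.63, and Itgax at -0.02 and 0.06.

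The effect of the STING activator was examined by comparing SR-717 with PBS. The class II genes were higher on average with SR-717, by log2 fold changes of 0.66 (standard error, SE, 0.53) for H2-Aa, 0.53 (0.57) for H2-Ab1, 0.56 (0.52) for H2-Eb1 and 0.63 (0.51) for Cd74, but none passed the test. H2-DMa stood at 0.78 (0.47), H2-DMb1 at 0.29 (0.29), Ciita at 0.62 (0.61), Flt3 at 0.62 (0.55) and Itgax at 0.26 (0.21). The median of the 9 genes was 0.62, against 0.01 for all 14070 genes tested. In edgeR's quasi-likelihood test with Benjamini-Hochberg adjustment, 0 of the 9 genes had an adjusted p under 0.05, each having an adjusted p of 1, and 0 had an unadjusted p under 0.05, as in DESeq2. Of all genes tested 0.0% passed the adjusted threshold, the unadjusted p was under 0.05 for 97 of them in edgeR and 178 in DESeq2, and 0.519% had an unadjusted p under 0.05 and a change of at least 1.5-fold, the thresholds the study used. In none of the 9 genes were the groups free of overlap, which was the case for 3.75% of all genes.

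The positive values for the chains, Cd74 and Ciita rested on SR-717 replicate 1. Without it the log2 fold changes were -0.20 (SE 0.21) for H2-Aa, -0.38 (0.28) for H2-Ab1, -0.28 (0.25) for H2-Eb1, -0.16 (0.26) for Cd74, -0.40 (0.31) for Ciita and -0.09 (0.16) for H2-DMb1. H2-DMa at 0.14 (0.29), Flt3 at 0.24 (0.58) and Itgax at 0.36 (0.21) kept a positive sign. The median of the 9 genes became -0.16. With the replicate number as a block, which pairs libraries of the same number, it was 0.32, and the share of all genes past the study's thresholds went from 0.519% to 3.15% (443 genes), with 0 of the 9 genes among them. In this paired fit Flt3 had a log2 fold change of 0.61 with a SE of 0.25 instead of 0.55 (unadjusted p = 0.059, adjusted p = 0.999, edgeR).

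The effect of the STING inhibitor was examined by comparing H-151 with PBS. The chains were lower on average by small amounts, with log2 fold changes of -0.18 (SE 0.16) for H2-Aa, -0.20 (0.22) for H2-Ab1 and -0.25 (0.20) for H2-Eb1, and none passed the test. Cd74 stood at -0.14 (0.21), Ciita at -0.17 (0.24), H2-DMa at 0.17 (0.27), H2-DMb1 at 0.05 (0.14), Flt3 at 0.49 (0.49) and Itgax at 0.03 (0.29). The median was -0.14, against -0.02 for all 14085 genes tested. The adjusted p was 1 for each of the 9 genes in edgeR, and an unadjusted p under 0.05 was reached by 0 of them in edgeR or DESeq2. Among all genes 0.0% passed the adjusted threshold, the unadjusted p was under 0.05 for 91 in edgeR and 125 in DESeq2, and 0.426% passed the study's thresholds, or 1.86% (262 genes) with the replicate number as a block, again with 0 of the 9 genes. The groups overlapped for all 9 genes and were free of overlap for 3.87% of all genes. PBS replicate 3 had the lowest PBS value of 7 of the 9 genes. Without it, H2-Eb1 reached an unadjusted p of 0.0424 at a log2 fold change of -0.42 (adjusted p at least 0.984 for this gene in all fits, edgeR). In that fit 230 of the 14252 genes tested had an unadjusted p under 0.05 (edgeR). Paired by number, Flt3 had a log2 fold change of 0.51 (SE 0.26, unadjusted p = 0.0947, adjusted p = 1, edgeR).

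The direct comparison of the activator with the inhibitor gave no call either, and its mean differences for the chains, Cd74 and Ciita were larger than in SR-717 against PBS, whereas those of the other 4 genes were smaller. SR-717 exceeded H-151 by log2 fold changes of 0.83 (SE 0.52) for H2-Aa, 0.71 (0.54) for H2-Ab1, 0.79 (0.51) for H2-Eb1, 0.76 (0.49) for Cd74 and 0.78 (0.61) for Ciita. H2-DMa stood at 0.60 (0.44), H2-DMb1 at 0.24 (0.29), Flt3 at 0.12 (0.50) and Itgax at 0.21 (0.28). The median was 0.71, against 0.02 for all 14151 genes tested. Each of the 9 genes had an adjusted p of 0.996 in edgeR, and an unadjusted p under 0.05 was reached by 0 of them in edgeR or DESeq2. Of all genes 0.0% passed the adjusted threshold in edgeR (1 gene in DESeq2), the unadjusted p was under 0.05 for 146 in edgeR and 281 in DESeq2, and 0.756% passed the study's thresholds, while the groups were free of overlap for 5.18% of all genes and for none of the 9.

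Without SR-717 replicate 1 the difference from H-151 was close to 0 for H2-Aa, H2-Eb1 and Cd74. The log2 fold changes were then -0.04 (SE 0.18) for H2-Aa, -0.04 (0.17) for H2-Eb1 and -0.04 (0.16) for Cd74. H2-Ab1 stood at -0.20 (0.17), Ciita at -0.24 (0.29), H2-DMa at -0.05 (0.23), H2-DMb1 at -0.15 (0.14) and Flt3 at -0.25 (0.49), and only Itgax stayed positive, at 0.32 (0.28). Without SR-717 replicate 3 instead, H2-Aa passed the study's thresholds with a log2 fold change of 1.16 and an unadjusted p of 0.0485, at an adjusted p of 0.694 (edgeR). In that fit 4.6% of all genes (661) passed them, against 0.756% with all 6 libraries.

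**Figure D4:**
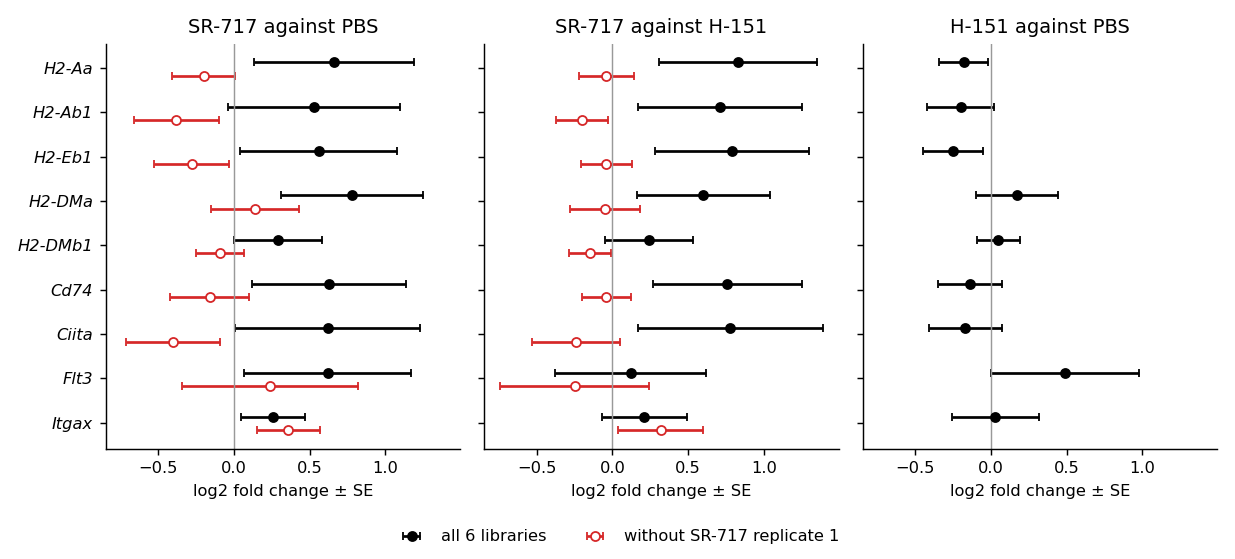
Log2 fold change with its standard error (horizontal bars) of each gene in the 3 comparisons from edgeR, with all 6 libraries (black) and, where SR-717 is compared, without SR-717 replicate 1 (red, open). For the chains, Cd74 and Ciita the black points lie between 0.53 and 0.83 in the SR-717 comparisons, and the red points lie at or below -0.04.

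The other genes of the class II pathway were taken from a list of 15, of which 13 were in the table and 12 were tested. H2-Ea and H2-Ea-ps were not found. None of the 12 had an adjusted p under 0.05 in any comparison (edgeR). H2-Oa, which encodes a chain of the DM inhibitor H2-O, was the only one past the study's thresholds, in SR-717 against PBS (log2 fold change 1.18, SE 0.40, adjusted p = 1, edgeR), making 1 of 12 beside 0.519% of all genes. It was at 0.857, 0.507 and 0.674 CPM with PBS and at 2.12, 1.27 and 1.23 CPM with SR-717, levels resting on 12 to 41 counts a library. The H2-Oa groups did not overlap in this comparison, as for 3.75% of all genes, and without SR-717 replicate 1 the call was lost (0.88, SE 0.43, unadjusted p = 0.0885, edgeR). H2-Ob, its partner chain, passed them in H-151 against PBS in the fit paired by number (log2 fold change 0.77, unadjusted p = 0.0451, edgeR) and not without the pairing (0.66, SE 0.44). In that paired fit 1.86% of all genes passed. The median log2 fold change of the 12 genes was 0.35 in SR-717 against PBS, -0.17 in H-151 against PBS and 0.53 in SR-717 against H-151. Without SR-717 replicate 1 the medians of the SR-717 comparisons were -0.19 against PBS and -0.02 against H-151.

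Of the 13 pathway genes in the table, 9 had their highest value in SR-717 replicate 1, and the share of all genes highest there was not counted. Ctss, the cathepsin that cleaves the invariant chain, was at 1125 CPM in that library and at 216 to 602 CPM in the other 8, with PBS replicate 1 the next highest. Marchf1, a ubiquitin ligase that removes class II from the cell surface, was at 54.2 CPM there and at 1.29 to 6.62 CPM elsewhere. The costimulatory ligand genes Cd80 and Cd86 were at 26.6 and 23.1 CPM there, against at most 8.62 and 13.8 CPM elsewhere, and Cd40, through which T cells activate antigen-presenting cells, was at 20.3 CPM against at most 10.5. Without that library the log2 fold changes of SR-717 against PBS were -0.19 (SE 0.45) for Ctss, -0.60 (0.75) for Marchf1, -1.28 (0.88) for Cd80, -0.28 (0.50) for Cd86 and -0.36 (0.28) for Cd40, where with it they were 0.65, 2.56, 1.33, 0.57 and 0.38. Against H-151, Marchf1 then passed the study's thresholds downwards (-0.73, SE 0.27, unadjusted p = 0.0346, adjusted p = 1, edgeR), from 2.41 (SE 1.29) with that library. In the fit without it 1.05% of all genes passed. The thiol reductase gene Ifi30 was at 270.2 CPM against 123 to 218, and the proteases Lgmn (637 against 369 to 605 CPM) and Ctsl (616 against 356 to 619 CPM) were close to the highest other library. Cd83, which stabilises class II at the surface, was at 17.4 CPM, near the bottom of its range of 16.9 to 25.5. H2-Ob was at 1.86 CPM against 1.20 to 4.24. H2-DMb2 was at 5.37 CPM against 1.12 to 4.24, with the uncertainty given for H2-DMb1, and H2-Eb2 was at 0.592 CPM or less in every library and was not tested.

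The regulators of class II genes were taken from a list of 20. All 20 genes of the list were in the table, 19 were tested, and none had an adjusted p under 0.05 in any comparison (edgeR). Of the DNA-binding partners of CIITA, 6 had narrow ranges over the libraries. Rfx5 was at 13.3 to 19.0 CPM, Rfxank at 15.9 to 21.6 CPM, Rfxap at 10.4 to 15.0 CPM, Nfya at 45.7 to 56.9 CPM, Nfyb at 11.8 to 19.6 CPM and Nfyc at 44.9 to 55.5 CPM. Their log2 fold changes lay between -0.24 and 0.17 in the 3 comparisons. Creb1, another partner, was the 1 of 19 regulators that passed the study's thresholds in H-151 against PBS (log2 fold change -0.85, SE 0.34, adjusted p = 1, edgeR), with 41.5, 23.4 and 62.9 CPM in PBS libraries and 25.5, 20.5 and 25.0 CPM in H-151 libraries, which overlapped, and 0.426% of all genes passed there. The median log2 fold change of the 19 was 0.25 in SR-717 against PBS and 0.27 in SR-717 against H-151, and without SR-717 replicate 1 it was -0.02 and 0.01.

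The genes described here of the interferon-γ route to Ciita were highest in SR-717 replicate 1. Ifng itself had 22 counts there (1.14 CPM) and at most 0.117 CPM in the other 8 libraries, and it was too low to be tested. The transcription factor gene Irf1 was at 224 CPM there and at 39.5 to 70.8 CPM elsewhere, and the kinase gene Jak2 at 175 against 22.2 to 57.3 CPM. Jak1 (235 against 122 to 188 CPM), Ifngr1 (181 against 88.1 to 128 CPM) and Ifngr2 (159 against 86.5 to 128 CPM) were higher there by less. Without that library the log2 fold changes of SR-717 against PBS were -0.17 (SE 0.26) for Irf1 and -0.71 (0.36) for Jak2. Il10, an inhibitory cytokine gene, was at 5.01 CPM there and at most 1.48 elsewhere.

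Among the lineage factors, Spi1, which encodes the myeloid factor PU.1, was at 307 CPM in SR-717 replicate 1 against 82.5 to 142 in the others, and Irf8, a factor of monocytes and dendritic cells, at 81.8 against 18.3 to 45.9 CPM. Within same-number pairs Irf8 had a log2 fold change of 0.76 in SR-717 against PBS (unadjusted p = 0.0311 in the paired fit, edgeR), and 0.87 (SE 0.46, adjusted p = 1, edgeR) without the pairing. In that paired fit 3.15% of all genes passed the study's thresholds. Irf8 passed them in the paired fit of SR-717 against H-151 too (0.62, unadjusted p = 0.0219, edgeR), as did 1.01% of all genes. Unpaired, its value there was 0.71 (SE 0.46, adjusted p = 0.996, edgeR). Without SR-717 replicate 1 the unpaired log2 fold change against PBS was 0.36 (SE 0.37) for Irf8 and -0.16 (0.26) for Spi1. Against H-151 it was then 0.20 (0.36) and 0.02 (0.12). Spib and Irf4, which B-lineage cells express, had their highest values outside SR-717 replicate 1, at 10.7 and 6.90 CPM in H-151 replicate 2. The ligand gene Flt3l was at 2.78 to 5.22 CPM. Its log2 fold changes were 0.27 in both SR-717 comparisons (SE 0.33 against PBS and 0.31 against H-151), and 0.09 and 0.08 without SR-717 replicate 1.

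Marker lists of cell types were set beside these values. In SR-717 replicate 1, 11 of 12 macrophage markers, 7 of 7 neutrophil markers, 6 of 6 T cell markers and 4 of 4 NK cell markers had their highest level of all libraries. The share of all genes highest in that library was not counted, so these counts cannot be called particular to the lists. Summed macrophage markers reached 3004 CPM there and 1131 to 1847 CPM in the PBS libraries, 1264 to 1554 CPM in the H-151 libraries and no more than 1615 CPM in the other SR-717 libraries. Summed neutrophil markers were at 335 to 2158 CPM with PBS, 663 to 2122 CPM with H-151 and 1307 to 9210 CPM with SR-717, and summed T cell markers at 12.5 to 22.3, 11.1 to 19.0 and 15.4 to 45.2 CPM. NK cell markers summed to 4.44 to 6.30, 4.95 to 6.08 and 5.55 to 18.9 CPM. In the fit of SR-717 against PBS paired by number, 7 of 7 neutrophil and 3 of 12 macrophage markers passed the study's thresholds, against 0 and 0 without the pairing, the shares of all genes being 3.15% in the paired and 0.519% in the unpaired fit. In the paired fit of H-151 against PBS, 3 of 7 neutrophil and 1 of 12 macrophage markers passed, beside 1.86% of all genes. In that of SR-717 against H-151, 0 of both lists passed, beside 1.01% of all genes. In SR-717 against PBS the unpaired median log2 fold change was 1.76 for the neutrophil and 0.42 for the macrophage markers. Without SR-717 replicate 1 these medians were 0.53 and 0.03. For T cell, NK cell, B cell and dendritic cell markers the medians were 1.09, 0.85, 0.38 and 0.03. Without that library they were 0.01, 0.49, 0.79 and -0.19. The part of these cells in the class II values was not tested.

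Of the dendritic cell markers 4 of 12, and of the B cell markers none, were highest in SR-717 replicate 1. The sum of the 12 dendritic cell markers was 256 to 313 CPM with PBS, 266 to 285 CPM with H-151 and 230.1 to 303 CPM with SR-717. Most of this sum came from Fscn1, at 192 to 269 CPM and lowest in SR-717 replicate 1. The other 11 markers summed to 38.4 CPM in that library and to 28.4 to 43.7 CPM in the other 8. Xcr1, Clec9a, Batf3 and Siglech were at 4.45 CPM or less in every library. Xcr1 (0.930 against at most 0.409 CPM), Clec9a (2.32 against at most 2.06 CPM), Ccr7 and Itgae were highest in SR-717 replicate 1. Lowest there were 3 of the 12: Fscn1, Zbtb46 (10.4 against 11.8 to 30.1 CPM) and Cd209a (0.671 against 0.914 to 3.68 CPM). None of the 12 was at 0 in a library. None of the 8 B cell markers was highest in SR-717 replicate 1, and their sum was 29.8 to 68.0 CPM with PBS, 45.1 to 80.2 CPM with H-151 and 38.6 to 89.6 CPM with SR-717, with Ms4a1 at 0 in PBS replicate 1. Progenitor markers summed to 242 to 273, 239 to 274 and 240.4 to 275 CPM. Keratinocyte markers summed to at most 7.47 CPM, with Krt5, Krt14 and Krt15 at 0 in some libraries, and the 3 muscle genes to between 2563 and 15856 CPM. Summed skeletal genes were at 29923 to 50138 CPM with PBS, 35736 to 42097 CPM with H-151 and 22045 to 46808 CPM with SR-717.

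Of the genes of these marker lists, 0 of 60 tested passed the study's thresholds in SR-717 against PBS, 1 of 60 in H-151 against PBS and 3 of 63 in SR-717 against H-151, beside 0.519%, 0.426% and 0.756% of all genes. None had an adjusted p under 0.05 (edgeR). Siglech, a marker of plasmacytoid dendritic cells, was at 0.799, 0.930 and 0.169 CPM with PBS, at 1.47, 1.28 and 4.45 CPM with H-151 and at 0.878, 0.657 and 0.350 CPM with SR-717. Its log2 fold change was 1.89 in H-151 against PBS (SE 0.72, adjusted p = 1, edgeR) and -1.91 in SR-717 against H-151 (0.62, adjusted p = 0.996, edgeR), and the H-151 group did not overlap the others, as for 3.87% and 5.18% of all genes. In the fit paired by number the call against PBS was lost (1.71, unadjusted p = 0.0797). Cd209a, a marker of monocyte-derived dendritic cells, was at 2.80, 2.17 and 1.61 CPM with H-151 and at 0.671, 1.27 and 1.17 CPM with SR-717 (log2 fold change -1.09, SE 0.37, adjusted p = 0.996, edgeR). The B cell gene Ms4a1 had a log2 fold change of -1.57 between the same groups (SE 0.63, adjusted p = 0.996, edgeR) at levels of 1.23 CPM or less. Without SR-717 replicate 1 the log2 fold changes were -2.21 (SE 0.72) for Siglech, which still passed, and -0.86 (0.36) for Cd209a and -1.24 (0.64) for Ms4a1, which did not. In that fit 1.05% of all genes passed.

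**Figure D5:**
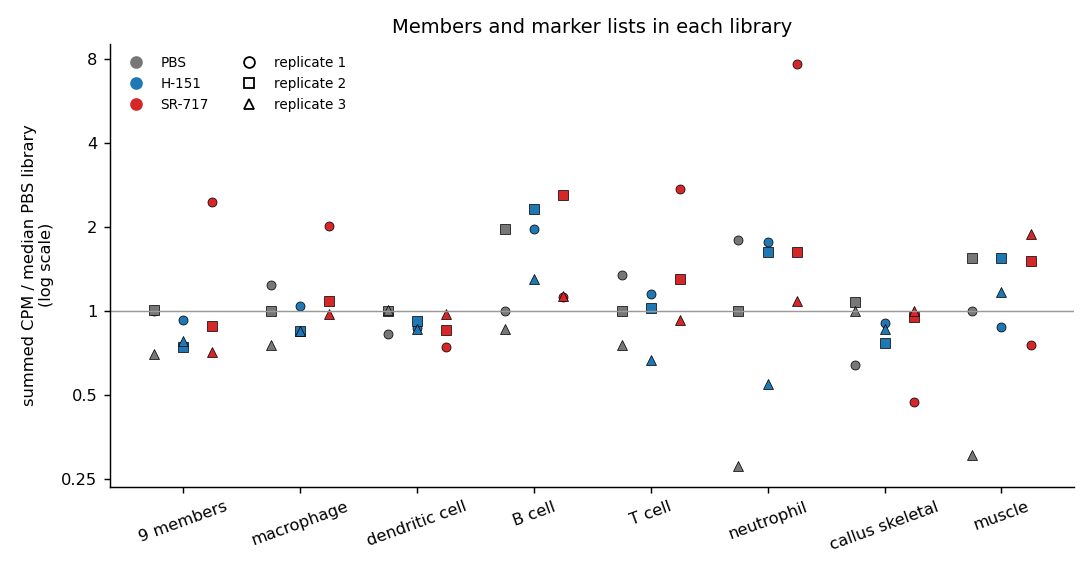
Summed CPM of the 9 genes and of 7 marker lists in each library, divided by the median PBS library of that list, on a log axis. SR-717 replicate 1 is the highest point for the 9 genes (1939 CPM), macrophage, T cell and neutrophil markers and the lowest for dendritic cell (230.1 CPM, mostly Fscn1) and skeletal markers (22045 CPM).

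The genes most like the chains and Cd74 in their pattern were taken from 13486 genes with a mean of at least 1 CPM, by Pearson's r of log2 CPM with the mean of those 4 genes over 9 libraries. Of the 10 most similar genes outside the 9, 8 are reported here: Ifi47, Nlrc5, Sh3bp2, Igtp, Iigp1, Tor4a, Slc8b1 and Spi1, with r from 0.98 to 0.99. Without SR-717 replicate 1, r over 8 libraries was 0.94 for Ifi47, 0.93 for Sh3bp2 and 0.92 for Nlrc5, and it was lowest among these 8 genes for Spi1 (0.87). Nlrc5, which encodes the regulator of MHC class I genes from the same protein family as CIITA, was at 55.9 CPM in SR-717 replicate 1 and at 6.73 to 13.5 CPM in the other 8 libraries. The interferon-inducible GTPase genes Igtp (105 against 11.9 to 30.2 CPM) and Iigp1 (85.6 against 2.30 to 7.88 CPM) had wider ranges than the chains. Ciita ranked 23rd of the 13486 genes, H2-DMb1 566th, H2-DMa 663rd, Flt3 2578th and Itgax 6606th.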

How the data were processed

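RNA of fracture callus was sequenced after poly(A) selection in 9 strand-specific, paired-end libraries. Groups and replicate numbers came from the sample labels, whose extraction text speaks of cell lines although they name bone as the tissue. The authors deposited an expected count per gene and library, without normalisation, and a TPM value scaled by gene length and library total. The build in the submitters' processing notes is mm10, and the aligner and counting program are not given in the sources used here. Expected counts (8.91% not whole) were rounded, the only change from the planned design, which assumed counts. The deposited table held 0 per-sample columns that could not be assigned to a library. Of its rows, 72 shared a symbol with another row, and none of the 9 genes was among them.

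Under R 4.3.3, the quasi-likelihood test of edgeR 4.0.16 was run on the 6 libraries of 2 groups, without covariates, after TMM scaling and filterByExpr (minimum count 10, minimum total 15), with Benjamini-Hochberg adjustment over all genes tested. The study's thresholds were read as an unadjusted p under 0.05 and at least 1.5-fold. Standard errors were derived from the F statistic. Log2 CPM used a prior count of 2. The test script was tested on simulated data. Of the 36 pairs of libraries none agreed within sampling noise (chi-square per gene at least 21.5). Alternatives were DESeq2 1.42.0 (size factors, and its Wald test), no filter, 1 fit of 9 libraries, the replicate number as a block and each library left out. Leaving out SR-717 replicate 1 with PBS replicate 1, or with the block, was added after seeing the data.

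Deviations from group means were correlated between libraries of the same number. For treated libraries with PBS, the correlation was 0.65, 0.34 and 0.14 with SR-717 and 0.30, 0.49 and 0.50 with H-151. Between SR-717 and H-151 it was 0.34, 0.06 and 0.08. Libraries of different numbers were not correlated in this way, so whether the numbers pair the libraries was not tested. What a number marks, and whether each library is a separate animal, is not stated, so p-values measure the spread between these samples.

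The 9 genes and the lists were chosen with earlier results of these data known. Named genes were the 9, the pathway and regulator lists, other listed genes past the study's thresholds and the 10 genes with the most similar pattern. Other genes named were markers of these lists. Some genes that this rule names are not reported here.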

Additional observations from a re-analysis of the deposited data

How the results depend on the processing

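With 3 libraries a group and 1 SR-717 library far from the rest, only large differences could pass the test, and the counts behind Flt3 and Ciita were low. Under every alternative run, 0 of the 9 genes had an adjusted p under 0.05, and DESeq2 size factors, its Wald test, no filter and 1 fit of 9 libraries turned no sign. The number of genes at an unadjusted p under 0.05 and 1.5-fold depended on the setting. In SR-717 against PBS it was 73, with 138 in DESeq2, 194 without the filter, 176 in the fit of 9 libraries and 443 with the replicate block, and 95 to 319 with libraries left out. In H-151 against PBS it was 60, with 127 without the filter, 262 with the block and 43 (without H-151 replicate 2) to 698 (without PBS replicate 2) with libraries left out. In SR-717 against H-151 it was 107, with 209 in DESeq2 (1 gene at an adjusted p under 0.05), 223 without the filter, 171 in the fit of 9 libraries and 64 to 661 with libraries left out, when 0 or 1 of the 9 genes passed. There the correlations between libraries of the same number were 0.34, 0.06 and 0.08, and the block gave 143 genes and a median over the 9 genes of 0.45. The block changed no call among the 9 genes. The cause of these shifts was not tested.

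Leaving out libraries moved the median log2 fold change of the 9 genes between -0.16 and 0.94 in SR-717 against PBS and between -0.05 and 1.06 in SR-717 against H-151. In the first comparison the ranges were -0.20 to 1.00 for H2-Aa, -0.38 to 0.87 for H2-Ab1, -0.28 to 0.88 for H2-Eb1, -0.11 to 0.47 for H2-DMb1, -0.16 to 0.94 for Cd74 and -0.40 to 0.99 for Ciita. In the other they were -0.04 to 1.16 for H2-Aa, -0.20 to 1.06 for H2-Ab1, -0.04 to 1.12 for H2-Eb1, -0.05 to 0.87 for H2-DMa, -0.15 to 0.41 for H2-DMb1, -0.04 to 1.07 for Cd74, -0.24 to 1.15 for Ciita, -0.25 to 0.46 for Flt3 and -0.02 to 0.50 for Itgax. In H-151 against PBS H2-DMa went from -0.01 to 0.43, H2-DMb1 from -0.01 to 0.13 and Itgax from -0.26 to 0.27, with -0.00072 for Itgax under the block. Without SR-717 replicate 1 and with the block, SR-717 against PBS gave 138 genes, a median of -0.10, and -0.12 for H2-Aa, -0.19 for H2-Ab1, -0.13 for H2-Eb1, -0.10 for H2-DMb1, -0.03 for Cd74 and -0.28 for Ciita. The same fit against H-151 gave a median of 0.06, and -0.09 for H2-Ab1, -0.08 for H2-DMb1 and -0.10 for Ciita.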
